A study of Mus musculus with 4 samples.

Results

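The interleukin and tumour necrosis factor genes of brown adipose tissue (BAT) described here were 10 genes chosen by symbol, of 32285 genes counted in each library. They comprised the cytokine genes Il1a, Il1b, Il6, Il10, Il18, Il33 and Tnf, together with Il1rn, Il18bp and Il1rl1, which encode proteins that block or receive some of these cytokines. All 10 were found in the files. Every one had at least 10 unique molecular identifiers (UMIs, 1 per captured RNA molecule) in each comparison between libraries counted below. Between macrophage subsets of a library some members fell short of 10 UMIs and were not counted. Single-cell RNA sequencing had been carried out on the stromal vascular fraction (SVF), the cells left after BAT is digested and its fat-filled adipocytes float away. The 4 libraries held 1 group each and all carry the strain label C57BL6/J, while the study names its db/db strain as B6.BKS(D)-Leprdb/J. Wild-type (WT) mice were 10 weeks old, db/db 8w mice (younger db/db) were 8 weeks old and db/db 16w mice (older db/db) were 16 weeks old, whereas the high-fat diet (HFD) library was recorded at 10 weeks of age although the study started that diet at 10 weeks and kept it for 10 weeks. The db/db mice carried a leptin receptor mutation in every cell and become obese and diabetic, while the HFD mice carried no stated mutation. By the study, each library pooled the SVF of 3 male mice and its cells were sorted before capture. With 1 library per group no difference could be tested, age and group cannot be told apart, and all intervals are 95% intervals that cover counting error only. Comparisons of the 3 obese libraries with WT used the same WT library. Where 4 values stand together without names, they belong to WT, then younger db/db, then older db/db, then HFD.

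Interleukin-1α and interleukin-1β act on a shared receptor and start inflammatory signalling, and the antagonist encoded by Il1rn occupies that receptor without a signal. Interleukin-1β and interleukin-18 are made as precursors that caspase-1 cuts in the inflammasome, tumour necrosis factor (Tnf) is shed from the cell surface by the protease Adam17, and many of these genes are induced through the transcription factor NF-kB. In adipose tissue macrophages are a well-known source of interleukin-1β and Tnf, interleukin-10 restrains such responses, and interleukin-33 is held in the nuclei of stromal cells and alerts innate lymphoid and regulatory T cells that carry its receptor, encoded by Il1rl1.

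Promoters of 4 genes are shown because the results turn on Il1a, Il1b, Tnf and Il6, whose levels lay far apart between the libraries. Each run is the 250 bases before the transcription start, read 5′ to 3′ on the strand of the gene from RefSeq on GRCm38.p6. Capitals mark matches to TATAAA, to TGANTCA (an AP-1 type motif) or to the kappaB motif, searched on both strands as was TGACGTCA.
Il1a: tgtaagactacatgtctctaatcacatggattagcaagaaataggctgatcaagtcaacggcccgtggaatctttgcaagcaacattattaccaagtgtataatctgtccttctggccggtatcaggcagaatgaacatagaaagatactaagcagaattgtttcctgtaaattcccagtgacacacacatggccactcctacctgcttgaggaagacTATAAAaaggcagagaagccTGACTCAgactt
Il1b: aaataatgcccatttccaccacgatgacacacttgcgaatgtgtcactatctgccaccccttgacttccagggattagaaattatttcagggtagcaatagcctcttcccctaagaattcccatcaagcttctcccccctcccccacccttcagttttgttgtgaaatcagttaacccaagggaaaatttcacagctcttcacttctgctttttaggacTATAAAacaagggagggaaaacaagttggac
Tnf: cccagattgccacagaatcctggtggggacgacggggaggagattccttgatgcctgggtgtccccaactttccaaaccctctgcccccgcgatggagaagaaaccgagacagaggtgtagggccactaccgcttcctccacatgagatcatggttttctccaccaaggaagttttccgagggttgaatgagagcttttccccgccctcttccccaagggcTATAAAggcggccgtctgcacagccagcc
Il6: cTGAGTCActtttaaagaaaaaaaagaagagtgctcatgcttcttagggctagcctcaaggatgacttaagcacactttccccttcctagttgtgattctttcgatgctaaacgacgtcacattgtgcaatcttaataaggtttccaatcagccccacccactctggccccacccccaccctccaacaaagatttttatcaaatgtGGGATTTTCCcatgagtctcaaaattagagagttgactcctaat
These windows lie at chr2:129309973-129310222 for Il1a, chr2:129371140-129371389 for Il1b and chr17:35202008-35202257 for Tnf, all on the minus strand, and at chr5:30012864-30013113 for Il6 on the plus strand. TATAAA began 32 bases before the start in Il1a, 31 in Il1b and 29 in Tnf. It also matched 175 bases before the start in Il18, and 203 and 29 bases before in the windows of Il33. This motif was found in 12.4% of 32851 promoter windows of the same length. A kappaB match lay 44 bases before the start of Il6 and was not found in the other members with a promoter entry (9 of the 10 genes had one), against 3.90% of all windows. TGANTCA matched in Il1a, Il6 and Il1rn and in 6.75% of windows, and TGACGTCA matched in no member and in 1.55% of windows. A match describes letters only and was not tested as a site. In the GRCm38 annotation Il1a (chr2:129299610-129309972) and Il1b (chr2:129364570-129371139) lie 54597 bases apart on the same strand. Il1b overlaps the antisense gene Il1bos, Il1a overlaps Gm14023, Il18 overlaps Bco2 and Tex12, and Il18bp overlaps Numa1, in each case on the opposite strand.

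The libraries differed in more than their group. After limits on genes, UMIs and mitochondrial share the libraries kept 5944, 11648, 5833 and 5462 cells, with 26558173 to 53420105 UMIs and median depths between 2733 and 6218.5 UMIs per cell. The mitochondrial limit of 15% alone removed 28.0%, 35.6%, 1.04% and 68.5% of barcodes. The db/db 16w library stood apart from its label of male mice, as Xist, the RNA of the inactive X chromosome, was at 207 CPM (UMIs of a gene per 1000000 UMIs of the library) against at most 0.688 CPM elsewhere, and 4 Y-linked genes summed to 17.7 CPM against 164 to 188 CPM. Comparisons with and without this library are therefore given side by side below, and the part played by sex was not tested. Pairs of libraries shared 7 to 25 cell barcodes, at most 0.429% of a library. The leptin receptor gene Lepr was at 0.0377 to 0.555 CPM in the 4 libraries, and gene-level counts at the 3′ end do not check that mutation. Brown adipocyte markers defined 0, 0, 3 and 1 cells.

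Over all cells, Il1a, Il1b, Tnf and Il10 were highest in younger db/db and lowest in older db/db. In younger db/db against WT, 5 of the 10 genes were at least 2-fold higher (Il1a, Il1b, Il1rn, Il1rl1 and Tnf) beside 11.3% of all genes with at least 10 UMIs, and 3 were at least 2-fold lower (Il18, Il18bp and Il33) beside 8.22%. In older db/db against WT, only Il1rn was at least 2-fold higher among the 10 (19.5% of all genes), and 7 were at least 2-fold lower (30.8% of all genes), which were Il1a, Il1b, Il6, Il10, Il18, Il33 and Tnf. In HFD against WT, Il1rl1 alone was higher (22.6% of all genes) and 6 members were lower (13.6% of all genes), namely the same list as in older db/db apart from Tnf, which was 1.91-fold lower. From db/db 8w to db/db 16w none of the 10 was at least 2-fold higher (11.9% of all genes) and 7 were lower (25.5% of all genes). The median log2 difference over the 10 members was 0.99, -2.71 and -1.80 in younger db/db, db/db 16w and HFD against WT, where the median of all genes was -0.02, -0.29 and 0.17.

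**Figure D1:**
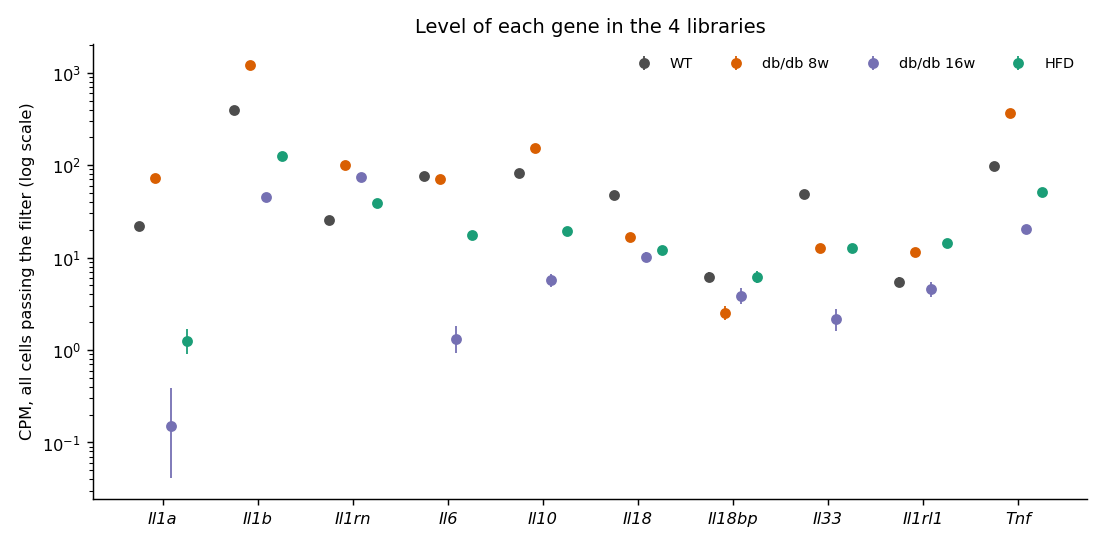
Level of the 10 genes in CPM (log scale) over all cells of each library, with 1 point per library and bars for the exact Poisson 95% interval of the count. Il1a spans from 71.9 CPM (db/db 8w) down to 0.151 CPM (db/db 16w), and Il18bp stays between 2.51 and 6.22 CPM.

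Il1b had the most UMIs of the members. It was counted at 395 CPM in WT (389 to 401), 1213 CPM in younger db/db (1204 to 1222), 44.8 CPM in older db/db (42.3 to 47.4) and 125 CPM in HFD (121 to 129), so that db/db 8w stood 3.07-fold above WT and the other obese libraries 8.82-fold and 3.16-fold below it. Il1a, which neighbours Il1b on chromosome 2, followed the same order with wider gaps. It was at 22.0 CPM in WT, 71.9 CPM in younger db/db, 1.26 CPM in HFD and 0.151 CPM in older db/db, where only 4 UMIs were counted in the whole library (interval 0.0410 to 0.386 CPM). Il1rn, the antagonist, did not share this order. Its level was 25.2 CPM in WT, 99.5 CPM in younger db/db, 74.3 CPM in older db/db and 38.9 CPM in HFD, and so it was above WT in all 3 obese libraries, by 3.95-fold, 2.94-fold and 1.54-fold. For db/db 16w the log2 difference of Il1rn was 1.56 on summed UMIs and 0.78 when each cell was given the same weight.

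Tnf, a cytokine that activates NF-kB through its own receptors, was at 98.3 CPM in WT, 367 CPM in younger db/db, 20.2 CPM in older db/db and 51.6 CPM in HFD. Its order over the libraries was that of Il1b. The log2 difference of Tnf from WT was 1.90 in younger db/db (1.85 to 1.95), -2.28 in older db/db (-2.41 to -2.15) and -0.93 in HFD (-1.01 to -0.85), and the last passed 2-fold under 4 alternatives (lowest -1.08). Il10, which encodes a cytokine that restrains inflammation, moved in the same direction as Tnf, at 83.3 CPM in WT, 154 CPM in younger db/db, 5.69 CPM in older db/db and 19.2 CPM in HFD. Il6 differed from both in younger db/db. It was at 76.8 CPM in WT and 70.2 CPM in younger db/db, a difference of 1.09-fold, then 17.4 CPM in HFD and 1.32 CPM in older db/db.

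Il18, Il33 and their partners showed another order, with the cytokines highest in WT. Il18 was at 47.8 CPM in WT, 16.6 CPM in younger db/db, 10.1 CPM in older db/db and 12.1 CPM in HFD, where the intervals of HFD (10.9 to 13.4) and db/db 16w (8.92 to 11.4) overlapped. Il18bp, whose product binds and neutralises interleukin-18, was low in every library, at 6.22 CPM in WT, 2.51 CPM in younger db/db, 3.88 CPM in older db/db and 6.20 CPM in HFD, and WT and HFD did not differ beyond counting error. Il33 was at 48.9 CPM in WT, 12.6 CPM in younger db/db, 2.15 CPM in older db/db and 12.7 CPM in HFD. The receptor gene Il1rl1 was at 5.44 CPM in WT, 11.6 CPM in younger db/db, 4.56 CPM in older db/db and 14.3 CPM in HFD. The interval of the log2 difference between db/db 16w and WT for Il1rl1 included 0 (-0.58 to 0.06).

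To place these molecules, cells were gated on raw UMIs of marker lists, and cells that carried markers of more than 1 lineage were set aside as mixed. The macrophage gate (Adgre1, C1qa, C1qb, C1qc, Mrc1, Fcgr1 and Cd68) held 1233, 2854, 2096 and 1558 cells. It took 18.2%, 35.0%, 60.3% and 35.8% of all UMIs, while the stromal gate (collagen genes, Dcn, Lum, Dpt and Pdgfra) took 77.1%, 52.2%, 16.8% and 27.1%. A level over all cells therefore mixes how much RNA each lineage supplied with how much of a gene each lineage held, and fewer cells of a type and less RNA per cell cannot be told apart in it. Of the Il1b UMIs, 75.1% in WT, 69.3% in younger db/db, 48.1% in older db/db and 57.7% in HFD lay in the macrophage gate. Tnf, Il10 and Il1rn lay mostly there in every library, at 69.2% to 83.5% for Tnf, 81.0% to 96.0% for Il10 and 76.5% to 85.4% for Il1rn. Il33 lay in the stromal gate, which held 97.5%, 94.8%, 93.0% and 87.0% of its UMIs. Il6 was divided, with 50.3% of its UMIs in the stromal gate in WT, 22.9% in younger db/db, 71.4% in older db/db and 70.0% in HFD. Il18 was stromal in WT (88.2%) and mainly macrophage in older db/db (78.4%).

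**Figure D2:**
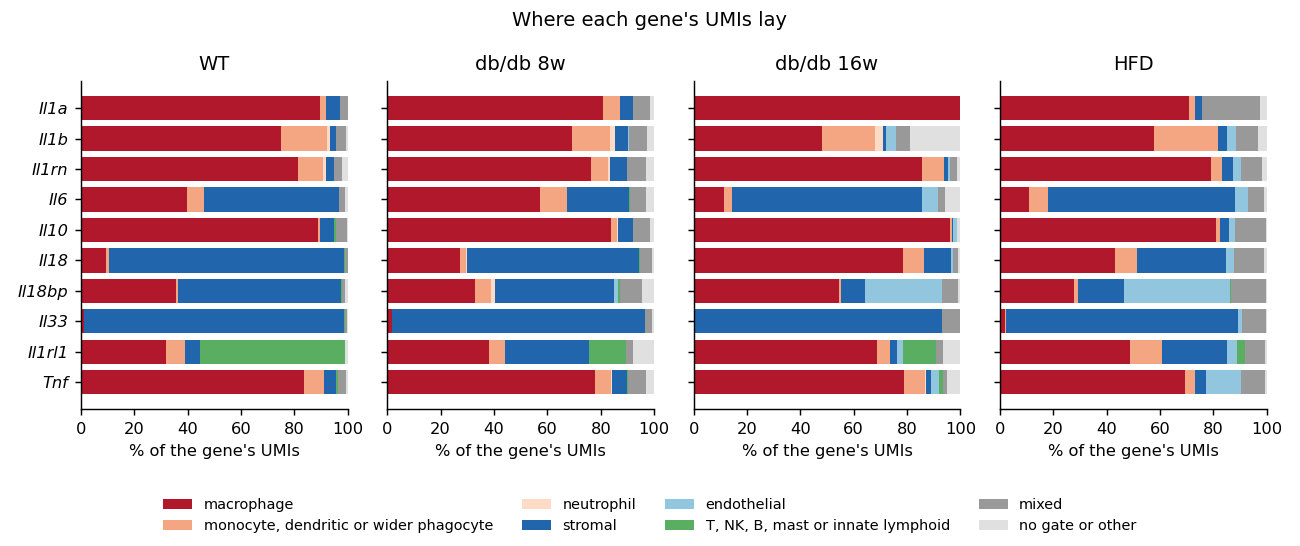
Share of the UMIs of each gene, in percent, by the gate of the cell that held them, with 1 panel per library and 1 bar per gene. Tnf, Il10 and Il1rn lie mostly in the macrophage gate of every library and Il1b in all but db/db 16w (48.1%), Il33 lies in the stromal gate, and the Il1a bar of db/db 16w rests on 4 UMIs.

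Droplets take up free RNA, so each level in a gate that should lack a gene was set beside macrophage genes measured the same way. In the stromal gate Il1b stood at 0.753% of its macrophage level in WT, 4.91% in younger db/db, 8.17% in older db/db and 8.04% in HFD. The macrophage genes Lyz2, Tyrobp, Fcer1g and Ctss stood there at 0.902% to 1.004%, 3.92% to 4.43%, 3.29% to 5.10% and 6.04% to 6.37% of theirs. Stromal Tnf, Il10, Il1rn and Il1a lay near these shares, and a stromal source of these 5 genes could not be separated from carried-over RNA. Il33 in the macrophage gate (22, 13, 0 and 8 UMIs) was at most 4.35% of its stromal level, beside at most 3.42% for the stromal genes Fbn1, Col6a3, Col5a2 and Mfap5, and a macrophage source of it could not be separated from carried-over RNA either. Stromal Il6, in contrast, was at 29.6%, 26.9%, 2248% and 846% of its macrophage level.

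Within the macrophage gate the amount of macrophage RNA no longer enters. There Il1a, Il1b, Il6, Il10 and Tnf in db/db 8w lay within 2-fold of WT. The same genes were at least 2-fold lower than WT in both other obese libraries. The other members did not share this order, and Il1rn and Il18 stayed within 2-fold of WT in each obese library. None of the 10 genes was at least 2-fold higher in younger db/db than in WT (8.61% of all genes) and 2 were lower (10.4% of all genes), Il18bp and Il33. In older db/db none was higher (19.9% of all genes) and 7 were lower (28.9% of all genes), which were Il1a, Il1b, Il6, Il10, Il18bp, Il33 and Tnf. Il33 enters these counts only because all 10 genes were counted, with UMIs near the carried-over level. In HFD the same 7 genes were also at least 2-fold lower (13.4% of all genes), and Il1rl1 alone was higher (18.9% of all genes), at 2.04-fold. That last count became 0 under 2 alternatives. Between db/db 16w and db/db 8w none of the genes was higher (11.0% of all genes) and 8 were lower (23.0% of all genes).

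Macrophage Il1b was at 1633 CPM in WT, 2403 CPM in younger db/db, 35.7 CPM in older db/db and 201 CPM in HFD. Against WT this was 1.47-fold higher in younger db/db, 45.7-fold lower in older db/db and 8.11-fold lower in HFD. Macrophage Tnf had the same order, at 452, 815, 26.5 and 99.6 CPM. Macrophage Il10 was at 407 CPM in WT and 369 CPM in younger db/db, against 9.05 CPM in older db/db and 43.5 CPM in HFD. The widest gaps within the gate were those of Il6 and Il1a. Il6 was at 169, 115, 0.250 and 5.31 CPM and Il1a at 109, 166, 0.250 and 2.48 CPM, with 4 UMIs of each among the 2096 macrophages of older db/db.

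Il1rn differed less between the macrophages of the 4 libraries. It was at 113 CPM in the macrophages of WT, 218 CPM in younger db/db, 105 CPM in older db/db and 85.9 CPM in HFD. The log2 difference of Il1rn from WT was 0.95 in younger db/db (0.84 to 1.05), -0.10 in older db/db (-0.22 to 0.02) and -0.39 in HFD (-0.52 to -0.26). The first passed 2-fold under 3 alternatives, up to 1.35, and the second changed sign under 2, at 0.07 and 0.02. Il18, which is transcribed in resting macrophages, stayed within 2-fold of WT, at 24.8, 12.9, 13.1 and 14.6 CPM. Il18bp was at 12.2 CPM in WT macrophages and between 2.35 and 4.80 CPM in the obese libraries, and macrophage Il1rl1 was at 9.54, 12.7, 5.18 and 19.4 CPM.

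**Figure D3:**
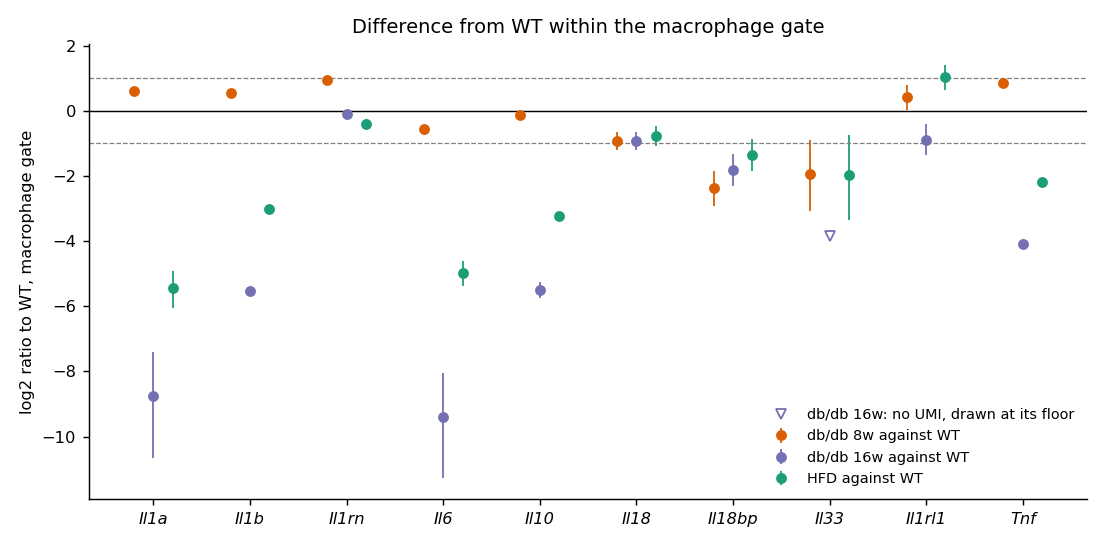
Log2 difference of each gene from WT within the macrophage gate of the 3 obese libraries, with exact 95% intervals, dashed lines at 2-fold and an open triangle where no UMI was counted. Il1rn lies at -0.10 in db/db 16w while Il1b lies at -5.52, and all points share the WT library.

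Genes of tissue dissociation and stress also differed between the macrophages of the libraries. In younger db/db their sum was below WT. There macrophage Il6 and Il10 were also below WT, and macrophage Il1a, Il1b and Tnf were above it. The 12 listed genes, which include Fos, Junb, Egr1 and the heat-shock gene Hspa1b, summed to 26130.4 CPM in the macrophages of WT, 12042 CPM in younger db/db, 3815 CPM in older db/db and 5268 CPM in HFD. In older db/db 12 of the 12 were at least 2-fold lower than in WT (28.9% of all genes). In HFD 9 of the 12 were lower (13.4% of all genes), and in younger db/db 6 of the 12 (10.4% of all genes). Over all cells the sums were 18994, 12202, 4995 and 9296 CPM. Their part in the levels of Il1b, Tnf, Il6, Il1a and Il10 was not tested. Markers of other cells differed within the gate as well, since stromal markers summed to 999, 599.8, 27.8 and 413 CPM and neutrophil markers to 162, 56.7, 38.9 and 21.4 CPM, and their part was not tested either.

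Counts per cell at 1 depth gave the order of the macrophage CPM for Il1b and Tnf. For Il1rn they placed younger db/db highest, as the CPM did, and the other libraries within counting error of each other. After each cell was thinned to 1000 UMIs, Il1b was detected in 21.7% of macrophages in WT (19.5% to 24.2%), 39.8% in younger db/db (38.0% to 41.7%), 3.18% in older db/db (2.46% to 4.04%) and 14.2% in HFD (12.5% to 16.0%). Without thinning these shares were 29.8%, 51.5%, 6.82% and 32.5%. In the stromal gate, which should lack Il1b, the thinned shares were 0.747%, 7.28%, 0.190% and 1.77%, and median depths of the stromal and macrophage gates were 7116 and 5443 UMIs in WT, 3489.5 and 5133 in younger db/db, 2885 and 6120 in older db/db and 5095 and 5971 in HFD. Tnf was detected in 19.7%, 32.4%, 2.89% and 9.69% of macrophages after thinning. Il1rn was detected in 5.33% (4.14% to 6.75%), 13.3% (12.1% to 14.6%), 6.95% (5.88% to 8.14%) and 6.996% (5.78% to 8.38%) of them. The Il1rn intervals of WT, older db/db and HFD overlapped. In older db/db more macrophages held Il1rn than Il1b. Cells left out as too shallow numbered 14, 113, 52 and 0.

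Il1b molecules were concentrated in few macrophages. At 1000 UMIs per cell, the tenth of macrophages with the most Il1b held 81.9% of its molecules in WT and 56.9% in younger db/db. Cells with 5 or more Il1b molecules were 7.22% of macrophages in WT, 17.8% in younger db/db, 0.196% in older db/db and 0.513% in HFD. The same cells tended to hold several cytokines in WT and db/db 8w. Among macrophages with Il1b, Tnf was detected in 38.5% in WT and 43.6% in younger db/db, against 14.5% and 24.9% of those without Il1b. In HFD the shares were 13.6% and 9.05%, with overlapping intervals, and in older db/db they were 1.54% (1 of 65 cells) and 2.93%. Without thinning Tnf was the more frequent among macrophages with Il1b in all 4 libraries, at 48.9% against 36.0% in HFD and 18.2% against 11.3% in older db/db, where the direction thus turned. Il1rn accompanied Il1b as well, in 18.9% of macrophages with Il1b against 1.57% of those without it in WT, and in 21.4% against 7.94% in younger db/db. In HFD this pair gave 6.33% and 7.11%, and 37.3% and 27.6% without thinning. In older db/db the direction was the reverse, at 0 of 65 macrophages with Il1b against 7.18% of those without it. Without thinning these shares of older db/db were 19.6% and 25.8%. Cells are not replicates, and these shares describe the 4 libraries only.

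The study centred on lipid-associated macrophages, so each macrophage was placed by whether UMIs of a lipid-associated list (Trem2, Cd9, Gpnmb, Spp1, Lpl, Fabp5, Lgals3 and Itgax) or of a perivascular list (Lyve1, Folr2, Cd163, F13a1, Cbr2, Cd209f and Cd209g) were larger. This cut marks a range and not a type. Cells with the larger lipid-associated count were 8.84% of macrophages in WT, 47.5% in younger db/db, 84.2% in older db/db and 96.1% in HFD, and 101, 274, 160 and 76 cells lay near the cut. In WT the lipid-associated cells held more of 5 members by at least 2-fold (Il1a, Il1b, Il1rn, Il6 and Tnf), beside 8.32% of all genes with at least 10 UMIs. WT Il1b was at 4202 CPM in 109 lipid-associated cells and 1203 CPM in 1105 perivascular cells, and WT Il6 at 573 and 100.1 CPM. In younger db/db Tnf alone was at least 2-fold higher in lipid-associated cells (8.33% of all genes), at 1056 CPM against 389 CPM in perivascular cells, and Il18bp alone was lower (13.1% of all genes), at 1.43 against 4.04 CPM from 17 and 27 UMIs. In older db/db Il1rn was the 1 member higher (7.59% of all genes) and Il10 and Il1rl1 were the 2 lower (21.1%). There Il1a (3 lipid-associated UMIs and 1 perivascular), Il6 (1 and 3) and Il33 (0 and 0) fell short of 10 UMIs and were not counted. HFD had 2 higher (9.13% of all genes), Il1b and Il1rn, and 2 lower (18.8%), Il18bp and Il1rl1. These 2 rest on 4 Il18bp and 10 Il1rl1 UMIs in 51 perivascular cells, with upper bounds of the log2 difference at -0.24 and -0.37.

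Both subsets had lower Il1b, Tnf, Il10, Il6, Il1a and Il1rn in older db/db and HFD than in WT. For Il1a and Il6 this rests on 0 UMIs in HFD perivascular cells and on 1 to 3 UMIs in each subset of older db/db. For Il1rn, which over all macrophages of older db/db lay near WT, the log2 difference from WT in that library was -1.59 in lipid-associated and -3.29 in perivascular cells, while the lipid-associated share was 84.2% against 8.84% in WT. In HFD these differences of Il1rn were -1.95 and -2.93, and in younger db/db -0.43 and 1.002. Lipid-associated Il1b was at 2807 CPM in younger db/db, 33.4 CPM in older db/db and 204 CPM in HFD, and perivascular Il1b at 1689.8, 54.4 and 40.7 CPM, the last from 8 UMIs. The libraries with the largest lipid-associated shares were thus those with the lowest Il1b. Il1rn was higher in the lipid-associated cells of older db/db, at 112 CPM against 7.91 CPM in perivascular cells (1676 and 8 UMIs). In HFD it was at 87.5 against 10.2 CPM, where the second rests on 2 UMIs in 51 cells and the log2 difference of 3.10 has a lower bound of 1.25. Il1rl1 was higher in the perivascular cells of older db/db, at 21.8 against 4.08 CPM.

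**Figure D4:**
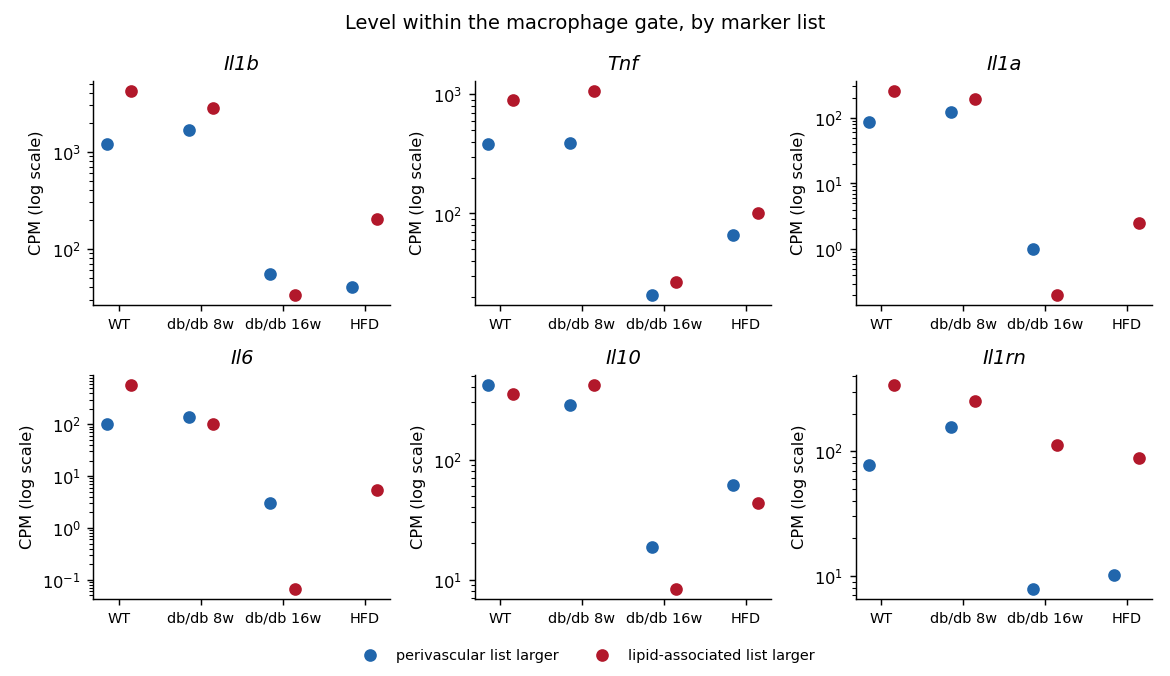
Level in CPM (log scale) of 6 genes in macrophages with the larger perivascular or lipid-associated marker count, with 1 point per subset and library and none drawn where no UMI was counted. Il1rn in db/db 16w is at 112 CPM in lipid-associated and 7.91 CPM in perivascular cells, whereas Il1b is at 33.4 and 54.4 CPM.

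Outside the macrophage gate Il1b was also abundant in other myeloid cells. Among younger db/db cells, 103 cells of the neutrophil gate held 1253 Il1b UMIs, or 7073 CPM, and after thinning Il1b was detected in 74 of 80 of them (92.5%). The gate held 7, 13 and 0 cells in WT, db/db 16w and HFD, too few for a level. Monocytes were over 50 cells in HFD only, where Il1b was at 1249 CPM in 58 cells. HFD dendritic cells numbered 63 and had Il1b at 472 CPM. A set of 71, 522, 357 and 189 cells passed no gate but held UMIs of the wider phagocyte list, which was added after the cells were seen. Il1b was at 1190.1 CPM in these cells in WT, 4383 CPM in younger db/db, 107 CPM in older db/db and 633 CPM in HFD.

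In stromal cells Il6, Il33 and Il18 had levels of their own. Stromal Il6, a cytokine that signals through Il6ra and Il6st, was at 50.0 CPM in WT, 30.8 CPM in younger db/db, 5.61 CPM in older db/db and 44.9 CPM in HFD. The stromal level in HFD was thus 1.11-fold below WT, while macrophage Il6 was 31.8-fold below it. Stromal Il33 was at 61.8 CPM in WT, 22.9 CPM in younger db/db, 11.9 CPM in older db/db (53 UMIs in 38 cells) and 40.7 CPM in HFD. Il18 in the stromal gate was at 54.6, 20.5, 6.06 and 14.9 CPM. All 3 genes were highest in WT and lowest in older db/db, and the stress genes summed to 17460.3, 12981, 5707 and 11784 CPM in the same stromal cells, whose part was not tested.

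Il1rl1 had several sources. All 10 cells of the group 2 innate lymphoid gate in WT held it, with 50 UMIs, as did 18 of 32 such cells in younger db/db. In the T cell gate of WT, 13 of 35 cells held 83 UMIs, and these small gates gave 20.4% and 33.9% of the Il1rl1 UMIs of WT. The T cell gate of younger db/db had 115 cells and 38 Il1rl1 UMIs. Stromal Il1rl1 was counted mostly in younger db/db and HFD, with 13 UMIs in 10 cells of WT, 196 UMIs in 88 cells of younger db/db, 3 UMIs in 3 cells of older db/db and 113 UMIs in 44 cells of HFD. In younger db/db and HFD these cells had median macrophage marker counts of 1 and 1.5 UMIs, and stromal Il1rl1 was at 55.4% and 65.8% of its macrophage level, beside at most 4.43% and 6.37% for the carried-over macrophage genes. A single cell held up to 30 of these UMIs in younger db/db and 20 in HFD.

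Endothelial cells were numerous in older db/db (1255 cells) and HFD (1372 cells) but numbered 21 in WT and 78 in younger db/db. HFD endothelial Tnf was at 32.6 CPM in 161 cells, 32.7% of the macrophage level, where the carried-over macrophage genes were at 4.99% to 5.25%. Of those 161 cells 44 held 2 or more Tnf UMIs. Endothelial Tnf was at 8.97 CPM in older db/db, from 16 UMIs. Il18bp was higher in the endothelial gate than in macrophages, at 16.8 against 3.50 CPM in older db/db and 11.9 against 4.80 CPM in HFD.

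Molecules of a cytokine gene were next counted per molecule of its inhibitor or receptor, as a ratio within a library that is compared only between libraries. There were 15.7 Il1b UMIs per Il1rn UMI in WT (14.8 to 16.6), 12.2 in younger db/db (11.9 to 12.5), 0.603 in older db/db (0.561 to 0.648) and 3.22 in HFD (3.02 to 3.43). Within macrophages the ratio was 14.5, 11.0, 0.339 and 2.34. It was thus lowest in older db/db in both settings. Il18 per Il18bp was 7.68, 6.63, 2.60 and 1.96 over all cells, but in macrophages it was 2.03 in WT and 5.50, 3.75 and 3.04 in the obese libraries. WT thus had the highest Il18 per Il18bp over all cells, where its interval overlapped that of younger db/db, and the lowest in macrophages, where it overlapped that of HFD. Il33 per Il1rl1 over all cells was 8.98 in WT, 1.09 in younger db/db, 0.471 in older db/db and 0.890 in HFD. In the stromal gate it had another order, at 165, 3.26, 17.7 and 3.19. The stromal ratios of WT and older db/db rest on 13 and 3 Il1rl1 UMIs.

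**Figure D5:**
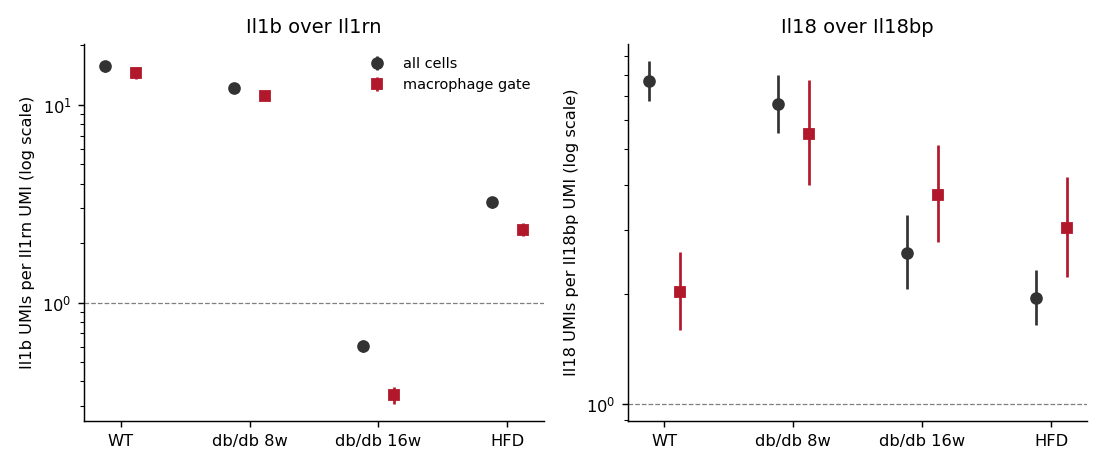
UMIs of Il1b per UMI of Il1rn and of Il18 per UMI of Il18bp (log scale) in each library, over all cells and in the macrophage gate, with 95% intervals and a dashed line at 1. Il1b per Il1rn lies below 1 only in db/db 16w, at 0.603 over all cells and 0.339 in macrophages.

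Other genes of these pathways were read from lists. Of 16 NF-kB targets and feedback genes in macrophages, 2 were at least 2-fold higher and 1 lower in younger db/db than in WT, 16 were lower in older db/db and 10 were lower in HFD. Among all genes of the same macrophage comparisons 8.61% were higher and 10.4% lower in younger db/db, so that its 2 and 1 of 16 lay near the background, while 28.9% were lower in older db/db and 13.4% in HFD. The chemokine gene Cxcl2 was at 7643, 15746, 541 and 3818 CPM in macrophages, and Nfkbia, the inhibitor that NF-kB itself induces, at 3328, 3607, 291 and 821 CPM. Zfp36, whose product promotes decay of Tnf RNA, was at 5237, 2384, 367 and 410 CPM. Of 10 inflammasome and processing genes in macrophages, none passed 2-fold in younger db/db or HFD, whereas 1 was higher (19.9% of all genes) and 5 were lower (28.9% of all genes) in older db/db. Nlrp3, the sensor of the inflammasome that cleaves interleukin-1β, was at 143, 205, 7.30 and 106 CPM, while its adaptor Pycard was at 116, 167, 296 and 189 CPM, the higher member in older db/db. Adam17, the protease that sheds Tnf, was at 86.3, 86.4, 47.4 and 127 CPM.

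Of 17 receptors and signalling partners in macrophages, 1 was higher and 1 lower in younger db/db, 9 were lower in older db/db, and 1 was higher and 3 lower in HFD. Beside them stood 8.61% and 10.4% of all genes in younger db/db, 28.9% lower in older db/db, and 18.9% higher and 13.4% lower in HFD, so that the counts of younger db/db and HFD were at or near the background. Il6ra, the receptor of interleukin-6, was at 185, 114, 45.6 and 96.6 CPM and Il10rb, a subunit of the interleukin-10 receptor, at 111, 112, 71.2 and 137 CPM. Tnfrsf1a, the main receptor of Tnf, was at 76.5, 75.9, 51.2 and 72.3 CPM. Of 26 other cytokine genes, 23 were in the files and 8 or 9 reached 10 UMIs in macrophages in a comparison with WT. Tslp, an epithelial and stromal alarm cytokine, was at 26.5, 14.0, 7.30 and 4.17 CPM over all cells. In the macrophage gate Tslp was at 73.8, 19.8, 6.18 and 2.57 CPM. Il34, a ligand of the Csf1 receptor, was at 10.9, 22.5, 8.999 and 13.5 CPM over all cells. Over all cells Il15 lay between 5.91 and 10.7 CPM and Il16 between 7.64 and 11.7 CPM. In macrophages Il15 was at 18.2, 11.6, 5.24 and 12.0 CPM and Il16 at 43.2, 13.8, 7.49 and 17.6 CPM.

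Lastly, genes with the most similar pattern were sought over 20 groups of a gate in a library with at least 50 cells, by Pearson correlation of log2(CPM + 1) among 13051 genes. Groups of a library share its depth and preparation, and no p is given. Il1b was most like Ccrl2 (r = 0.93), Nlrp3 (0.92) and Cd14 (0.92), and Tnf most like the chemokine genes Cxcl2 (0.94) and Ccl4 (0.92). Il1a was most like Nfkbia (0.90) and Il10 (0.89), and Il10 in turn most like Il1a. Il33 was most like Gabra3 (0.97), Sema3b (0.96) and Osr2 (0.96). Il6 had weaker likenesses, led by Dyrk2 (0.81) and Ptgs2 (0.80), and Il1rl1 was led by Dusp5 (0.85). Il1rn was most like Tmem189 (0.92) and C5ar1 (0.90), Il18 most like Emilin2 (0.90), and Il18bp most like Tppp (0.82).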

How the data were processed

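The deposited values were raw UMI counts for every gene in each called barcode. Per the study the authors made these counts from 10x Chromium 3′ libraries with Cell Ranger on mm10, version 7.1.0 in its text and 6.0.0 in the file headers, so reads of overlapping genes are assigned by strand and 3′ position. A barcode was a cell if it had between 250 and 6000 genes, between 500 and 30000 UMIs and a mitochondrial share below 15%. No doublet caller was run, but cells passing more than 1 lineage list were set aside as mixed. The macrophage gate required at least 6 UMIs from 3 list genes and the stromal gate 15 UMIs from 3. The wider phagocyte class (4 UMIs from 2 genes) was added after the ungated cells were seen. Levels are summed UMIs per 1000000 (CPM) with exact Poisson intervals, ratios have exact conditional binomial (Clopper-Pearson) intervals and shares exact binomial ones. A gene was counted when past 2-fold, among genes with at least 10 UMIs, and a count of 0 stood at its floor of 3 counts, which could make its own side lower but never higher. Thinning used 1 random draw to 1000 UMIs. Members and lists were chosen with earlier results of these data known. All 10 members were named whatever their values, with at most 4 genes per pathway list, those with the most UMIs, and the 3 genes most like each member. Il1r2, Il1r1 and Il12b, given last, were named outside this rule. Ratios were tested on simulated counts. Python 3.11.15, numpy 2.4.6, scipy 1.17.1 and pandas 2.3.3 were used.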

Additional observations from a re-analysis of the deposited data

Results flagged for a closer look

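Some genes differed from WT in opposite directions between obese libraries, and none of these differences was tested because each group is 1 library. Over all cells the log2 difference of Il1a from WT was 1.71 in younger db/db and -7.19 in older db/db, a gap of 8.90, and against HFD (-4.13) the gap was 5.84. Il1b gave gaps of 4.76 between db/db 8w and db/db 16w and 3.28 between db/db 8w and HFD. Tnf gave a gap of 4.18 between db/db 8w and db/db 16w. The WT library cancels out of each gap, so each equals the difference between the obese libraries themselves.

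The barcodes that the quality limits removed also held members above their level in the removed barcodes of WT. In younger db/db Il1b was at 672 CPM there against 177 CPM in WT, Tnf at 380 against 72.8 CPM and Il1a at 47.9 against 9.48 CPM. Il1rn was at 98.2 CPM in the removed barcodes of younger db/db, 64.8 CPM in older db/db and 24.6 CPM in HFD, against 8.37 CPM in WT. Il1rl1 was at 12.96 CPM in younger db/db and 18.0 CPM in HFD against 3.32 CPM in WT. Il18bp was at 6.32 CPM in HFD against 3.001 CPM in WT.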

How the results depend on the processing

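Of 430 log2 differences of members recomputed under alternatives, 425 kept their direction and 415 their side of 2-fold. The other 5 were differences near 0, of Il18bp in HFD over all cells and of Il1rn in the macrophages of older db/db. Changes in the counts of members at least 2-fold lower are not listed here. Among them, Tnf in HFD over all cells passed 2-fold lower under some alternatives, as given above. The counts of members at least 2-fold higher changed as follows. With each cell weighted alike they were 0 in place of 1 (db/db 16w against WT) and 1 in place of 0 (db/db 16w against db/db 8w) over all cells. In macrophages the count for db/db 8w against WT was 1 in place of 0 with double the marker UMIs, with no mitochondrial limit and with a thinned gate. For HFD it was 0 in place of 1 with median-of-ratios scaling and with double the marker UMIs, and for db/db 16w against db/db 8w 1 in place of 0 with the thinned gate. The gene behind the db/db 8w change was Il1rn and that behind the HFD change Il1rl1. The median-of-ratios scaling moved the median of all genes by -0.15 in older db/db and 0.11 in HFD over all cells, and by -0.17 and 0.12 in macrophages.

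The share of macrophages with Il1b was 24.9%, 47.1%, 4.91% and 21.5% at 2000 UMIs and 29.8%, 51.5%, 6.82% and 32.5% without thinning (WT, younger db/db, older db/db and HFD). Tnf among macrophages with Il1b was 72.6%, 75.9%, 18.2% and 48.9% without thinning, against 32.7%, 45.3%, 11.3% and 36.0% of those without Il1b. With a subset called only at 3 times as many UMIs of one list, members at least 2-fold lower in lipid-associated cells were 1 in WT (Il18). They were 2 in younger db/db (Il18 and Il18bp) and 4 in older db/db (Il1b, Il10, Il18bp and Il1rl1). Those higher were 3 in younger db/db (Il1b and Il1rn beside Tnf) and 1 in HFD (Il1b, with 0 UMIs in 13 perivascular cells). In HFD Il10 replaced Il1rl1 among the lower, with Il1rl1 at a log2 difference of 0.01. The share of all genes is not given for this rule, and the cause of these changes was not tested. No paired analysis was possible because each group is 1 library, and for the same reason no replicate could be left out. Counting error limits Il1a and Il6 in older db/db and the gates under 50 cells.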

Other observations

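Il1r2, which encodes a decoy receptor that binds interleukin-1 without a signal, was chosen after its values were seen. It was at 190 CPM in WT, 18.8 CPM in younger db/db, 2.94 CPM in older db/db and 5.49 CPM in HFD over all cells, and at no more than 9.78 CPM in the macrophage gate of any library. Il1r1, the signalling receptor, was at 87.4, 67.0, 31.0 and 38.9 CPM over all cells and at 1.06 to 3.55 CPM in macrophages, and was likewise named after its values were seen. Il12b, a subunit of interleukin-12, had 0.244, 2.43, 0.0753 and 9.48 CPM over all cells, the highest in HFD. It was not among the 4 genes of its list with the most UMIs and was named outside that rule.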
